A study of Mus musculus with 15 samples.

Results

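The livers of 5 wild-type mouse pups on postnatal day 1 are described here, out of 15 livers in the series. All 5 samples titled as wild-type liver were taken, and no measured value was used to choose them. Gene expression was measured on Agilent single-colour arrays, with 1 array for each pup. The pups were of the C57BL/6J strain, born by natural delivery, and were littermates of mutants that lacked the maternally inherited copy of the microRNA cluster miR-379/miR-410. They carried no deletion and received no treatment. Blood glucose was 51, 72, 50, 55 and 65 mg/dl in replicates 1 to 5, which is 58.6 ± 9.56 mg/dl (SD, n = 5). Which litter each pup came from is not given in the sources used here, so any statement on spread covers these pups alone.

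At birth the placental supply of glucose ends, and the liver has to release glucose, burn the fatty acids of milk and dispose of ammonia by itself. The hepatocyte at this age also makes most plasma proteins, while many enzymes of drug, steroid and bile acid metabolism reach their adult level only around weaning. The newborn liver still makes blood cells as well, a task that passes to the bone marrow and spleen over the first weeks of life. The labels name the tissue as whole liver, so RNA of hepatocytes, blood-forming cells, vessels and connective tissue was measured together. In such bulk RNA, fewer cells of a type and less RNA per cell cannot be told apart.

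A level is the base-2 logarithm of a probe's processed signal minus that of the 75th percentile of its array, so that 0 is the signal at that percentile and each unit is a doubling. The percentile lay between 663 and 912 signal units over the 5 arrays, and 57.9% to 76.2% of spots were well above background by the scanner software. It was highest on replicate 1 and lowest on replicate 5. Replicates 1 and 2 were on 1 slide and replicates 3, 4 and 5 on another. No spot was saturated, but the brightest processed signals reached 690901 to 749345 units, near the scanner's saturation value of 778496 to 778716. Among the 30 genes with the highest level, 27 were lowest on replicate 1 and 28 were highest on replicate 5, the reverse of the percentile, so small differences between arrays at the top of the scale were not interpreted. Whether a signal ceiling has a part in that order was not tested. The order of genes by level is an order of probe signals, which depends on each probe as well as on the transcript.

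The probes behind the leading signals are shown first, since several of them share sequence with probes of unrelated genes. Each line gives the central 30 bases of a 60-base probe, or 30 bases that hold the shared stretch, from 5′ to 3′ and from the array files. Capitals mark the bases common to the probes of a set. Among the leading transcripts with a probe of their own are albumin (Alb), alpha-fetoprotein (Afp) and the imprinted non-coding RNA H19. Their probes lie in mm9 at chr5:90901598-90901657, chr5:90937781-90937840 and chr7:149761492-149761551, on the plus strand except that of H19.
Alb: gaaacatatgtccccaaagagtttaaagct
Afp: taactgtaactgctagtactttaaccacat
H19: tccatcataaagtgttcaacatgccctact
Shared runs occurred in probes named for Glrx2, Elk1, Med16 and Ndor1 (24 bases), for Pirb and Synrg (33 bases), for Kctd14 and Ttc38 (31 bases) and for Exosc2 and Milr1 (39 bases).
Glrx2: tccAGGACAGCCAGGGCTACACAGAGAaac
Elk1: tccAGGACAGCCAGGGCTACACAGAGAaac
Med16: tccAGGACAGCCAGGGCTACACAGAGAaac
Ndor1: aggAGGACAGCCAGGGCTACACAGAGAcac
Pirb: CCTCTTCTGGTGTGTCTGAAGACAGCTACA
Synrg: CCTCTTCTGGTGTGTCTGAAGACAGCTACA
Kctd14: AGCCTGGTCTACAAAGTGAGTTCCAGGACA
Ttc38: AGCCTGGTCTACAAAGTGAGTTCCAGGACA
Exosc2: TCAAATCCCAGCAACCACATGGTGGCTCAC
Milr1: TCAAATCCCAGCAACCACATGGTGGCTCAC
The run of the first set was also found, on either strand, in 8 of 32851 RefSeq promoter windows (GRCm38.p6), that of Pirb and Synrg in 14, that of Kctd14 and Ttc38 in 4 and that of Exosc2 and Milr1 in 13. These letters are those of the short interspersed repeats B1 and B2, which is background knowledge and was not looked up in a repeat annotation here.

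Of the 30 genes with the highest level, 7 had a probe that shared a run of 20 bases or more with a probe of a gene of another name stem, which is 23.3%. Over all 19613 genes with a proper symbol the share was 1.1% (216 genes). For most of these 7 genes another probe on the same array read far lower. Glrx2, a mitochondrial glutaredoxin, was at 9.54 by the probe shown above and at 2.92 and −4.41 by its other probes. Elk1, a transcription factor, was at 9.25 and −4.16, and Kctd14 at 9.50, −0.07 and −3.57. Exosc2, a subunit of the RNA exosome, had no other probe. The levels of these genes are therefore not described further, and their part in the ranking was not tested beyond these values. Runs were also shared within families. The probes of Serpina1a, Serpina1c and Serpina1e, which encode the protease inhibitor alpha-1-antitrypsin, had 29 bases in common, so these genes could not be told apart.

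**Figure D1:**
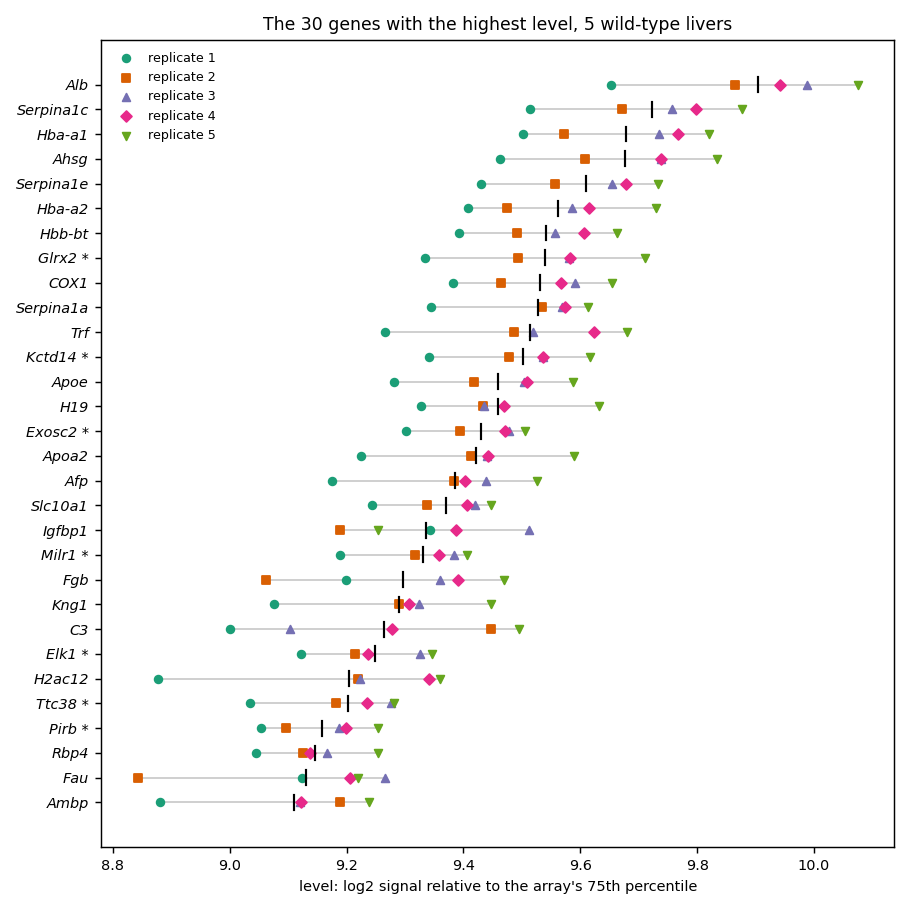
Level (log2 signal relative to the 75th percentile of the array) of the 30 genes with the highest mean level in the 5 wild-type livers. Symbols are single livers and black bars are means; a star marks a gene whose probe shares 20 bases or more with a probe of an unrelated gene. The points of a gene lie within a narrow range, with replicate 1 mostly lowest and replicate 5 mostly highest.

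Secreted proteins, globins and fetal transcripts led the remaining signals. Alb, the main plasma protein, was at 9.65, 9.87, 9.99, 9.94 and 10.08 in replicates 1 to 5, which is 9.90 ± 0.16 (SD, n = 5) and the highest of all genes. The fetuin Ahsg was at 9.68 ± 0.14, the iron carrier transferrin (Trf) at 9.51 ± 0.16 and Serpina1c at 9.72 ± 0.14. Their ranges over the 5 livers overlapped. Of 33 genes for secreted plasma proteins that were measured, 31 were well above background on all 5 arrays and 28 had a mean level over 6. The median level of the list was 8.26, against −0.82 over the genes with a proper symbol and −2.66 over all 34741 genes and transcripts. Here and below, counts of genes detected on all arrays are to be read against 71.7% of genes with a proper symbol. Not every plasma carrier was high: Serpina6, the carrier of corticosteroids in blood, was at 0.78 ± 1.13, with 2.15 and 1.80 in replicates 2 and 5 and −0.35 to 0.40 in the others.

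Lipoprotein and clotting genes were close behind. All 30 genes of lipid transport were detected on 5 arrays (median level 4.57), led by Apoe at 9.46 ± 0.12, Apoa2 at 9.42 ± 0.13 and Apoc1 at 8.94 ± 0.11. Apoa1, the main protein of high-density lipoprotein, was at 8.01 ± 0.09 and Apob, the main protein of low-density lipoprotein, at 6.50 ± 0.23. All 27 genes of coagulation were detected on 5 arrays with a median level of 5.99. The fibrinogen chains Fgb and Fgg were at 9.30 ± 0.16 and 9.06 ± 0.12, and antithrombin (Serpinc1) at 8.72 ± 0.17. Kininogen (Kng1) read 9.29 by its brightest probe and 5.63 by another, so its level depends on the probe. Complement was led by C3 at 9.26 ± 0.21, and 23 of 25 of its genes were detected on every array. Among the acute-phase proteins, haptoglobin (Hp) was at 8.92 ± 0.16, whereas the serum amyloid gene Saa1, which inflammation induces strongly, was at −0.14 ± 0.28.

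Fetal and imprinted growth genes were present across their list, with 26 of 27 detected on all arrays and a median level of 2.04. H19 was at 9.33, 9.43, 9.44, 9.47 and 9.63 in replicates 1 to 5 and Afp at 9.17, 9.38, 9.44, 9.40 and 9.53. Both sets of values were within 0.36 log2 units between the lowest and the highest liver. Of the 7 probes for H19, 1 read −2.43. The growth factor Igf2, which shares a control region with H19, was at 3.18 ± 0.36 and the Notch-like ligand Dlk1 at 5.72 ± 0.25. The non-coding RNAs of the same imprinted domain as Dlk1 were at 4.81 ± 0.16 (Meg3) and 1.23 ± 0.28 (Mirg), in livers that all carried the intact microRNA cluster. Rtl1, a retrotransposon-derived gene of that domain named after its values were seen, was the 1 member not detected on every array and was detected on 1, at a mean of −5.83.

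Genes for releasing glucose were detected throughout. All 23 were well above background on 5 arrays, with a median level of 5.73. The gluconeogenic enzymes Fbp1 and Pck1 were at 8.79 ± 0.17 and 7.47 ± 0.30, and G6pc, the phosphatase that frees glucose, was at 7.24, 6.03, 7.11, 7.21 and 6.94 in replicates 1 to 5. G6pc (SD 0.50, and 0.13 without replicate 2) was lowest in replicate 2, the pup with the highest blood glucose; with 5 pups a relation to glucose was not tested. Glycogen genes had a lower median of 3.03. The liver glycogen synthase Gys2 was at 5.61 ± 0.11 and the liver phosphorylase Pygl at 5.37 ± 0.20.

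Genes for burning fat and for making it were both detected. All 36 genes of fatty acid oxidation were detected on 5 arrays, with a median of 5.74, while 20 of 22 genes of lipogenesis were, with a median of 1.97. Cpt1a, the entry step of fatty acids into mitochondria, was at 6.08 ± 0.30, the fatty acid carrier Fabp1 at 8.50 ± 0.45 and the hydroxylase Cyp4a14 at 8.32 ± 0.24. Of the 22 lipogenic genes 15 had a mean level above 0, led by Dgat2, which completes triglycerides, at 6.61 ± 0.09 and the acyltransferase Agpat2 at 6.28 ± 0.31. Fatty acid synthase (Fasn) was at −2.47 ± 0.41, the desaturase Scd1 at −0.56 ± 0.34 and the lipogenic regulator Srebf1 at −3.19 ± 0.60. Each of these 3 lay below 0 in all 5 livers. For ketone bodies, the dehydrogenase Bdh1 was at 5.95 ± 0.61. Fgf21, a fasting hormone of the liver, was at −2.81 ± 0.82, and its regulator Ppargc1a at 2.40 ± 0.56.

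The urea cycle and amino acid breakdown were also in place on day 1. All 13 genes of ammonia handling (median 5.15) and all 34 of amino acid catabolism (median 4.81) were detected on 5 arrays. Argininosuccinate synthase (Ass1) was at 8.27 ± 0.90, arginase (Arg1) at 6.69 ± 0.70 and Cps1, which fixes ammonia, at 5.15 ± 0.96. The methyltransferase Bhmt, at 8.90 ± 0.16, was the amino acid enzyme with the highest level.

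Enzymes and transporters of later liver life ranged widely. The bile acid importer Slc10a1 read 9.37 by 1 probe and 3.81 by its other, while Cyp7a1, the rate-limiting enzyme of bile acid synthesis, was at 1.11 ± 0.69. Of the 31 cytochrome P450 and related genes all were detected on 5 arrays, from −3.48 to 8.94. Cyp2d26 was at 8.94 ± 0.15, Cyp2e1 at 7.71 ± 0.33, Cyp3a11 at 6.89 ± 0.37 and the fetal form Cyp3a16 at 5.20 ± 0.24. Of 31 genes listed as rising in liver after weaning, 24 were detected on all arrays, against 71.7% of genes with a proper symbol. Another 5 were detected on 1 to 4 arrays and 2, Elovl3 and Mup3, on none. The median of that list was −0.29. It was not uniformly low, as Serpina1e and Cyp3a11 belong to it, and Serpina1e shares its probe sequence with relatives.

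Regulators were measured at moderate levels. The nuclear receptor Hnf4a was at 6.23 ± 0.16, the hepatocyte transcription factor Cebpa at 2.35 ± 0.38 and Tbx3, a repressor active in liver growth, at 1.54 ± 0.19. Of the 34 genes listed as hepatocyte transcription factors, 32 were detected on 5 arrays (median 1.84). That list also holds Afp, which is not a transcription factor and had its highest level. Igfbp1, an insulin-like growth factor binding protein that insulin represses in liver, was among the brightest genes at 9.34 ± 0.12. The growth hormone receptor Ghr was at 2.39 ± 0.34 and its target Igf1 at 1.70 ± 0.54. Of 19 clock genes, 16 were detected on 5 arrays, against 71.7% of genes with a proper symbol. Per1 was at 3.32 ± 0.27 and Arntl at 1.29 ± 0.43. The immediate-early gene Fos, which handling and tissue removal can induce, was at −2.51 ± 0.53, and Egr1 at 1.80 ± 0.80.

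Transcripts of red blood cells and their precursors were clearly detected. Adult globins were at the top of the scale, with Hba-a1 at 9.68 ± 0.14 and Hbb-bt at 9.54 ± 0.10, and the erythroid haem enzyme Alas2 was at 6.11 ± 0.18. Every one of the 35 erythroid markers was detected on 5 arrays (median 3.84). The embryonic globins were far dimmer and differed between pups. Hbb-y was at 0.37, −2.03, −1.95, −1.32 and −0.33 in replicates 1 to 5, and Hba-x at −0.12, −3.33, −3.23, −2.29 and −1.31. Both were highest in replicate 1 and lowest in replicate 2, with replicates 3, 4 and 5 in the same order for both genes.

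The other blood lineages differed in level and in how many markers were detected. All 31 granulocyte markers were detected on 5 arrays (median 3.26). S100a9, a calcium-binding protein of neutrophils, was at 8.45, 8.49, 8.47, 8.40 and 8.46, among the least variable of the bright genes, and S100a8 at 7.40 ± 0.12. All 18 megakaryocyte markers were detected, led by platelet factor Pf4 at 6.37 ± 0.21. So were all 17 B-lineage markers, led by Vpreb3 at 4.03 ± 0.14. Of 25 macrophage and Kupffer cell markers 24 were detected on 5 arrays. The scavenger receptor Marco was at 6.14, 6.34, 7.46, 7.78 and 6.28, higher in replicates 3 and 4 than in the other livers without overlap. Of 23 natural killer and T cell markers 17 were detected on all arrays, against 71.7% of genes with a proper symbol, and 6 on 1 to 4. Their median was −2.32, with the granzyme Gzma at 4.21 ± 0.21. Stem and progenitor markers had a median of −0.88, with Myb at 2.71 ± 0.13.

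Dividing cells and the supporting cells of the liver were represented too. Of 40 cell cycle and replication genes 39 were detected on 5 arrays, with a median of 2.31. Mki67, a marker of cycling cells, was at 5.86 ± 0.16. The kinase Aurkb was at background on all arrays by its 1 probe, so a missing transcript and a poor probe cannot be told apart. Endothelial markers had a median of 1.92, with Stab2, a sinusoidal scavenger receptor, at 4.52 ± 0.21. The water channel Aqp1, at 5.68 ± 0.15, had the highest level of that list and of the bile duct list, so it does not tell these cells apart. Fibroblast genes included Sparc at 7.27 ± 0.07 and Col1a1 at 3.50 ± 0.40. Bile duct markers were dimmer (median −2.04), with Krt19 at 0.35 ± 0.33. Housekeeping machinery was high and even: 83 of 85 ribosomal protein genes (median 7.86) and all 76 nuclear genes of oxidative phosphorylation (median 6.20) were detected on 5 arrays.

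**Figure D2:**
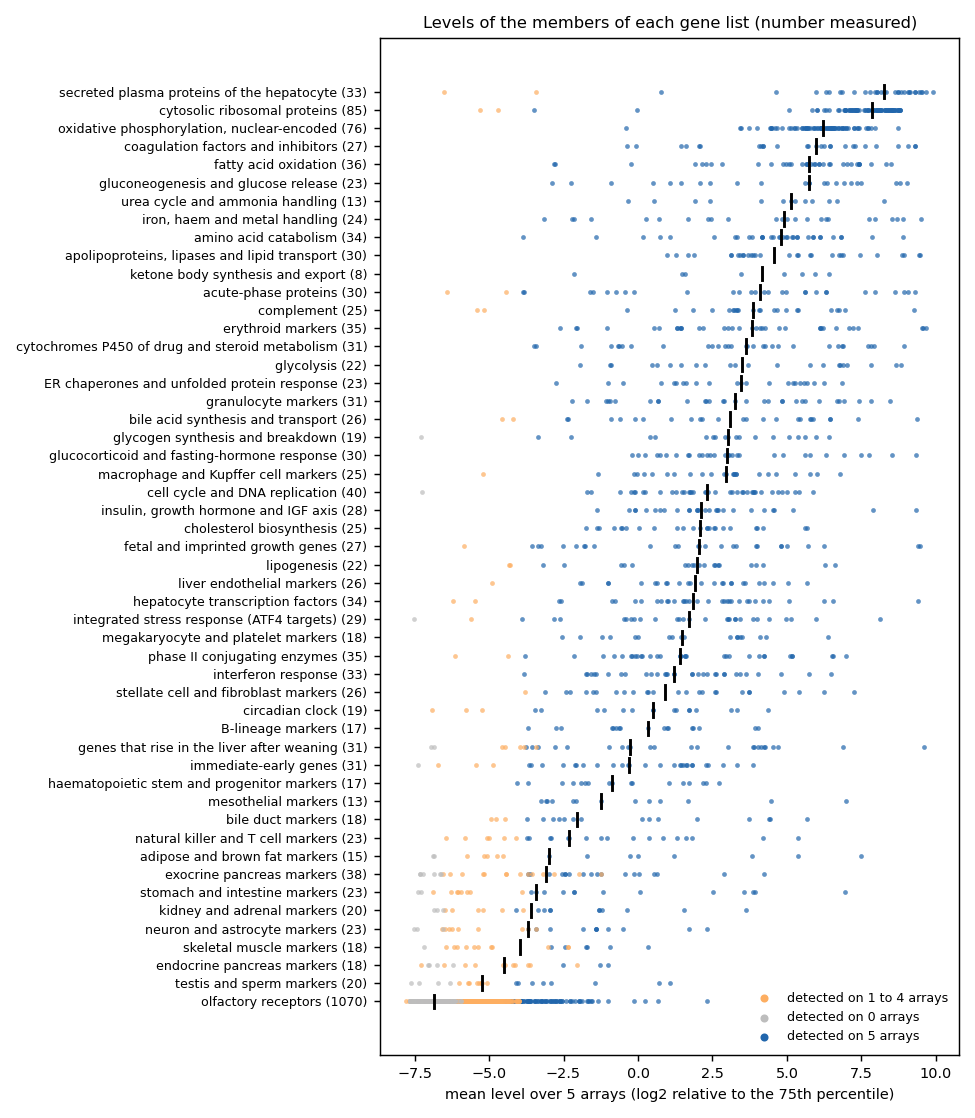
Mean level over the 5 arrays of every measured member of each gene list, with lists ordered by their median (black bar). Blue points are genes detected on 5 arrays, orange on 1 to 4 and grey on 0; secreted plasma proteins (median 8.26) are at the top and olfactory receptors (median −6.85) at the bottom.

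In all, 21438 of 34741 genes and transcripts were well above background on all 5 arrays (61.7%), 7749 on 1 to 4 (22.3%) and 5554 on none (16.0%). Among genes with a proper symbol, 14072 of 19613 were detected on all arrays (71.7%) and 2366 on none (12.1%). Genes of other organs were in part undetected. Of 1070 olfactory receptor genes, 598 were at background on every array and 89 were detected on all. Of 20 testis markers 8 were detected on all arrays and 4 on none, including Sycp1 and Dazl of the germ line. Among 23 markers of neurons and astrocytes 11 were detected on all arrays and 3, Gad1, Gria2 and Neurod6, on none. The brown fat gene Ucp1 and the kidney transporter Slc12a3 were at background on all arrays, as were the pancreas regulators Ptf1a and Pax6. A gene at background has only an upper bound, which differed by array: the dimmest signal well above background was at −6.24, −5.09, −5.96, −4.63 and −4.74 in replicates 1 to 5.

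The spread between pups was small for most genes. Over 21334 genes whose probe was well above background on all arrays, the SD between livers had a median of 0.19 log2 units, with 5% of genes under 0.07 and 5% over 0.57. It fell with level, from a median of 0.28 below a level of −4 to 0.10 above 8. For 322 detected probes that were printed several times on each array, the SD between spots within an array had a median of 0.07 and the SD between arrays a median of 0.20. The SD between arrays was the larger in 285 of the 322, which is 88.5%. The spread thus exceeded spot error, but the extraction, labelling and hybridisation of each liver are part of it, and no liver was measured more than once.

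**Figure D3:**
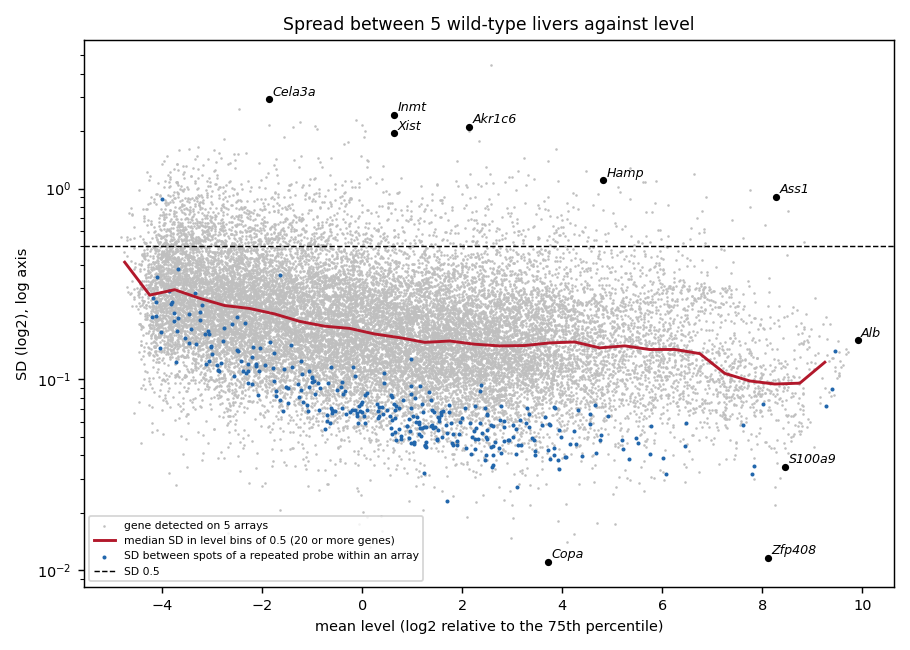
SD between the 5 livers (log axis, log2 units) against mean level for the genes detected on 5 arrays (grey), with the median in level bins (red line) and the SD between spots of repeated probes within an array (blue). The red line lies above most blue points, and the named genes lie between 0.01 (Copa) and 2.94 (Cela3a).

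An SD over 0.5, a factor of 1.41, was found in 1540 of 21334 genes, which is 7.22%. Among genes with a mean level above 0 it was found in 394 of 10842 (3.63%). Of the genes with such an SD and a proper symbol, replicate 2 was the liver farthest from the median in 478 (47.3%) and replicate 1 in 255 (25.2%). Replicates 3, 4 and 5 were the farthest in 64, 110 and 103. The number of genes that differed by more than 2-fold was 1321 between replicates 1 and 2 and 260 between replicates 3 and 4, with the other pairs between. Over all 14055 genes with a proper symbol and an SD, replicates 1 to 5 were the highest liver in 4253, 3356, 1962, 2424 and 2060 genes and the lowest in 3638, 4706, 2065, 2009 and 1637. Counts of list members that were highest or lowest in a liver are to be read against these. Without replicate 2 the number of genes with an SD over 0.5 was 1190, and 23 of the 50 most variable genes stayed among the 50.

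Gene lists differed in how many members passed that SD, to be read against 7.22% of all genes and 3.63% of those with a mean level above 0. No member passed an SD of 0.5 among 23 genes of endoplasmic reticulum chaperones, 76 of oxidative phosphorylation, 39 of the cell cycle, 18 of megakaryocytes and 17 of stem and progenitor cells. At these shares, lists of 17, 18 or 23 genes would hold few such members, so a count of 0 does not set them apart. Of 83 ribosomal protein genes 1 did, Rpl39l at a level of −3.49, and the median SD of that list was 0.09. By contrast, 18 of 31 cytochrome P450 and related genes passed 0.5, as did 13 of 24 genes that rise after weaning, 13 of 33 conjugating enzymes, 11 of 30 genes of lipid transport, 6 of 13 of the urea cycle and ammonia handling and 15 of 18 exocrine pancreas genes. Without replicate 2 these counts were 10, 8, 6, 4, 1 and 8.

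**Figure D4:**
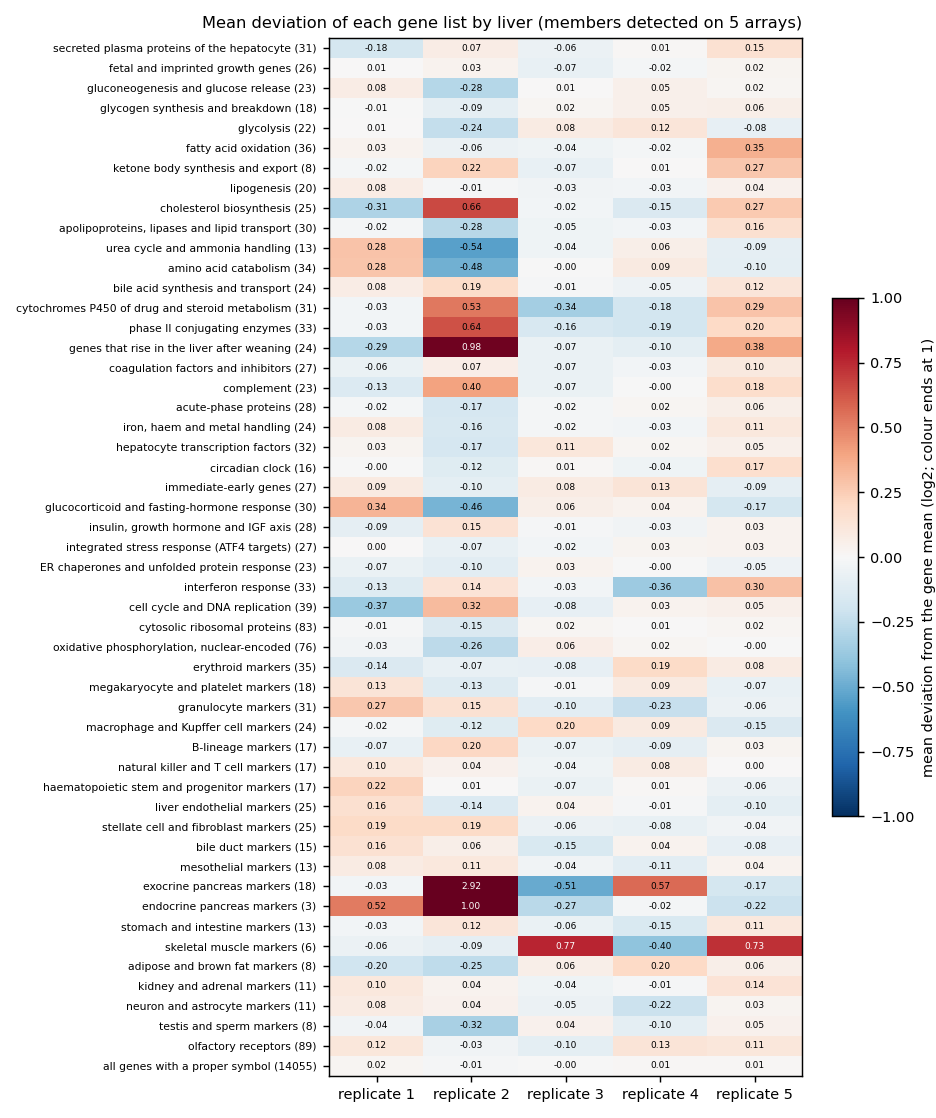
Mean deviation of each gene list from its genes' medians over the 5 livers, for each liver (log2, with the number of members detected on 5 arrays in brackets). Red is above and blue below the median, with colour ending at 1. The colour bar names the gene mean, but the values were taken from the median. Replicate 2 holds the strongest colours, and the bottom line gives all genes with a proper symbol.

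Digestive enzymes of the pancreas were among the most variable transcripts of the 5 livers. Cela3a, which encodes an elastase, was at −3.07, 3.10, −4.05, −1.54 and −3.74 in replicates 1 to 5 and had the largest SD of all detected genes with a proper symbol (2.94). Without replicate 2 its SD was 1.12, below those of Nanp (2.21), Xist (2.19) and Sult1e1 (2.17), so that its rank rests on that liver. Chymotrypsinogen Ctrb1 was at −0.27, 4.84, −1.17, 0.82 and −1.09. Colipase (Clps) was at −0.91, 3.80, −1.60, −0.19 and −1.73, and carboxypeptidase Cpa1 at −2.10, 2.59, −2.75, −1.15 and −2.81. In each of these replicate 2 was far above the rest and replicate 4 came second. Without replicate 2 the SD of Ctrb1 was 0.93 in place of 2.49, that of Clps 0.71 in place of 2.28 and that of Cpa1 0.77 in place of 2.25. Of the 18 exocrine markers detected on 5 arrays, 16 were highest in replicate 2. There the 18 lay on average 2.92 above their medians over the 5 livers.

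The trypsinogens went from background to bright between livers. Try5 was at −0.96, 4.54, −3.04, 0.03 and −6.73, with replicate 5 at background, so that replicate 2 was at least 622-fold higher than replicate 5. Try4 (at least 402-fold) shares 31 probe bases with Try5, of which 30 are shown in capitals, so both readings may stem from either gene.
Try4: GCAAACTAAGCATCCCTTTGAAGTCATTAT
Try5: GCAAACTAAGCATCCCTTTGAAGTCATTAT
Prss2, another trypsinogen, whose probe had no run over 6 bases in common with either, was at −3.65, 1.49, −6.67, −2.98 and −6.71, and Cpb1 at −3.47, 2.74, −5.94, −2.72 and −6.58. Both were detected in replicates 1, 2 and 4 alone. Insulin was also highest in replicate 2, with Ins2 at −1.44, 0.99, −1.98, −1.62 and −2.29 (SD 1.30, and 0.38 without replicate 2), while glucagon (Gcg) was at background in all 5. Over the whole list of 38 exocrine genes, 18 were detected on 5 arrays, 14 on 1 to 4 and 6 on none, Pnlip and Ptf1a among the last. The summed signal of the list was 7.76 on the level scale in replicate 2 and 4.54 to 5.08 in the others. Amy2a5 at 4.22 ± 0.94 and Spink1 at 2.89 ± 0.79 were its members with the highest mean level. Without replicate 2 the median SD of the list was 0.48 in place of 1.41.

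**Figure D5:**
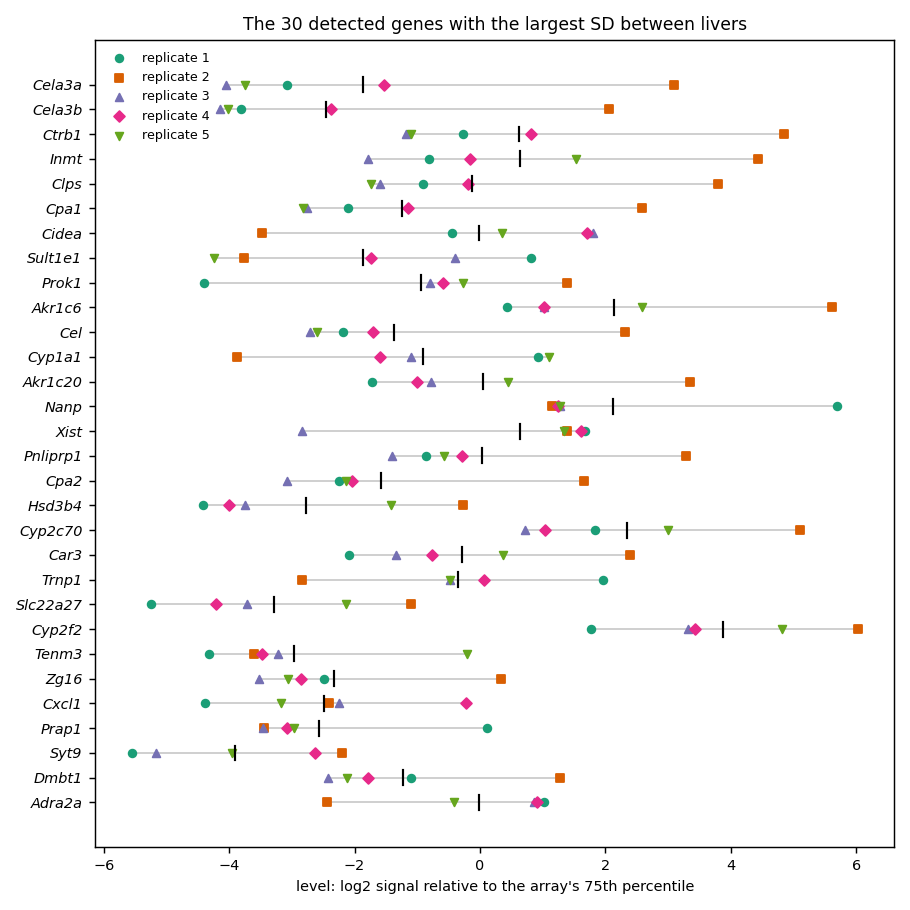
Level (log2 relative to the 75th percentile) of the 30 genes with the largest SD among those detected on 5 arrays. Symbols are single livers and black bars are means; replicate 2 (squares) is the highest in 20 of the 30 genes and the lowest in 5.

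Some enzymes of steroid, bile acid and drug metabolism were also among the genes with the largest SDs, by which the genes given here were chosen. Akr1c6, a hydroxysteroid dehydrogenase of liver, was at 0.43, 5.61, 1.02, 1.02 and 2.58 in replicates 1 to 5. Akr1c20, a relative of it, was at −1.72, 3.34, −0.78, −1.01 and 0.44, and the longest run shared by their probes was 11 bases. Cyp2c70, which makes the muricholic acids of mouse bile, was at 1.84, 5.11, 0.71, 1.03 and 3.01, and Cyp2f2, an enzyme of periportal hepatocytes, at 1.77, 6.03, 3.31, 3.43 and 4.81. The methyltransferase Inmt was at −0.82, 4.43, −1.78, −0.15 and 1.53. Carbonic anhydrase Car3, a gene of the adult liver and of muscle and fat, was at −2.08, 2.40, −1.34, −0.76 and 0.36. In these 6 genes replicate 2 was the highest liver and replicate 5 the second highest. Without replicate 2 the SD of Akr1c6 was 0.92 in place of 2.10, that of Inmt 1.39 in place of 2.44 and that of Cyp2c70 1.02 in place of 1.78. The lists as a whole were less uniform. Of 31 cytochrome P450 and related genes 16 were highest and 6 lowest in replicate 2, and of 24 bile acid genes 5 were highest and 7 lowest there. Of the 24 genes that rise after weaning, 14 were highest in replicate 2 and 12 lowest in replicate 1. Over all 14055 genes with a proper symbol, 3356 were highest in replicate 2 and 3638 lowest in replicate 1.

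The direction was not shared by every such enzyme. Cyp1a1, a target of the aryl hydrocarbon receptor, was at 0.92, −3.87, −1.09, −1.59 and 1.10, and the oestrogen sulfotransferase Sult1e1 at 0.81, −3.76, −0.40, −1.73 and −4.25. Both were low in replicate 2 (SD of Cyp1a1 2.04, and 1.38 without that liver), and Sult1e1 was lower still in replicate 5. Cyp1a2 was at −1.32, 0.04, −1.91, 0.21 and 0.25, with the arrays of the upper slide row (replicates 1 and 3) below those of the lower row. Cidea, a lipid droplet protein, was at −0.44, −3.48, 1.80, 1.71 and 0.35, again lowest in replicate 2 (SD 2.16, and 1.09 without it).

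Several genes of nitrogen disposal were lowest in replicate 2. Cps1 was at 6.18, 3.69, 5.78, 5.26 and 4.84 in replicates 1 to 5, Ass1 at 8.81, 6.71, 8.73, 8.83 and 8.28 and Asl, which splits argininosuccinate, at 6.60, 4.50, 6.18, 6.35 and 5.60. Arg1 was at 7.62, 5.66, 6.72, 6.89 and 6.55. In these 4 genes replicate 2 was below every other liver. Without it the SD of Ass1 was 0.26 in place of 0.90, that of Cps1 0.59 in place of 0.96, that of Asl 0.42 in place of 0.84 and that of Arg1 0.47 in place of 0.70. Glud1, which releases ammonia from glutamate, went the other way, at 5.88, 7.02, 6.11, 6.34 and 6.64. So did Otc, named after its values were seen, at 2.05, 3.32, 2.04, 2.02 and 2.72. Of the 13 genes of the list 8 were lowest in replicate 2 and 9 highest in replicate 1, against 4706 and 4253 of 14055 genes. Its median SD was 0.45, and 0.28 without replicate 2.

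Amino acid breakdown and hormone-responsive genes followed. Tyrosine aminotransferase (Tat), which glucocorticoids and glucagon induce, was at 6.07, 3.23, 5.23, 5.48 and 4.31. Serine dehydratase (Sds) was at 3.73, 0.99, 2.65, 3.65 and 1.74 and ornithine aminotransferase (Oat) at 4.71, 1.61, 3.51, 3.97 and 2.78. The 3 genes gave the livers the same order, with replicate 1 highest, then 4, 3, 5 and 2. The creatine enzyme Gamt had the opposite extremes, at 1.84, 5.60, 2.75, 2.46 and 3.55, and its other detected probe was also highest in replicate 2 and lowest in replicate 1. Of 34 genes of amino acid catabolism, 23 were lowest in replicate 2 and 22 highest in replicate 1, against 4706 and 4253 of 14055 genes. Of 30 genes of the glucocorticoid and fasting response, 22 were lowest in replicate 2, against the same 4706 of 14055 genes. Without replicate 2 the number of genes with an SD over 0.5 was 7 in place of 13 in the first list and 7 in place of 10 in the second. The SD of Tat was then 0.73 in place of 1.11 and that of Gamt 0.71 in place of 1.45.

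Cholesterol synthesis showed the reverse. Squalene epoxidase (Sqle) was at 1.43, 3.69, 2.50, 2.01 and 3.07, the synthase Hmgcs1 at 3.10, 4.95, 3.77, 3.64 and 4.45, and Cyp51 at −2.61, −0.28, −2.16, −2.34 and −1.29. Each was highest in replicate 2, second in replicate 5 and lowest in replicate 1. Of the 25 genes of the pathway 20 were highest in replicate 2 and 18 lowest in replicate 1, against 3356 and 3638 of 14055 genes. An SD over 0.5 was found in 8 of the 25, and in 4 without replicate 2. The SD of Sqle was then 0.70 in place of 0.88 and that of Cyp51 0.57 in place of 0.95. The cell cycle list had the same extremes, with 32 of 39 genes highest in replicate 2 and 33 lowest in replicate 1, but over a narrower range. The mean deviation of that list from the gene medians ran from −0.37 to 0.32. Ribosomal protein and oxidative phosphorylation genes were lowest in replicate 2 for 75 of 83 and 68 of 76 genes, against 4706 of 14055 genes. Their mean deviations from the gene medians were −0.15 and −0.26 there.

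Replicate 2 had the highest blood glucose, the highest pancreas signal and the most spots flagged by the scanner software (526, against 181 to 386). In 5 animals these cannot be told apart, and their part in the metabolic values of that pup was not tested. Replicate 5, whose pup had the second highest glucose, shared the higher P450, sterol and weaning genes at a smaller size. From the median of each gene over the 5 livers, its exocrine pancreas members deviated by a mean of −0.17 and those of replicate 4 by 0.57.

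Fatty acid oxidation was highest in replicate 5 for most of its genes. Of 36 genes of fatty acid oxidation 22 were highest in replicate 5, against 2060 of 14055 genes. Their mean deviation from the gene medians was 0.35 there and between −0.06 and 0.03 in the other livers. Other bright genes were also often highest in replicate 5: 41 of the 50 with the highest level and 17 of 31 secreted plasma proteins. Among the ribosomal protein genes it was 22 of 83. Of 33 interferon-response genes 18 were highest in replicate 5 and 22 lowest in replicate 4, against 2060 and 2009 of 14055 genes. Isg15, an interferon-induced modifier, was at 3.95, 3.87, 4.10, 3.28 and 4.90. The metallothioneins, small proteins that bind zinc and copper, were lowest in replicate 4, with Mt1 at 8.91, 8.76, 8.59, 7.21 and 9.16 and Mt2 at 8.34, 7.72, 7.89, 6.14 and 8.73. The longest run shared by their probes was 7 bases. Of the 24 genes of iron, haem and metal handling 3 were lowest and 8 highest in replicate 4, with a mean deviation from the gene medians of −0.03 there. Hepcidin (Hamp), the hormone that limits iron uptake, was at 6.73, 3.90, 4.36, 4.39 and 4.71, with replicate 1 above every other liver by 2.02 or more. Prg2, a granule protein of eosinophils, was at 4.21, 3.79, 2.56, 1.75 and 2.01, higher in replicates 1 and 2 than in the others.

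Sex-linked transcripts differed among the pups. Xist, expressed from the inactive X chromosome of females, was at 1.68, 1.38, −2.84, 1.61 and 1.33. The Y-linked genes Ddx3y and Eif2s3y were at 2.01 and 3.02 in replicate 3 and at or below −4.45 in every other liver, although Eif2s3y was also called above background in replicate 1. Replicate 3 was the 1 liver with Y-linked signal and low Xist; the labels used here give no sex. As 1 pup against 4, sex was not compared for other genes.

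Muscle RNA differed as well. Among 18 skeletal muscle markers 6 were detected on all arrays, 11 on 1 to 4 and 1, Myog, on none. The actin Acta1 was at −2.07, −2.44, −0.38, −3.57 and −0.20 and the troponin Tnnc2 at −1.40, −1.68, 0.29, −2.16 and 0.24, in both cases higher in replicates 3 and 5. The summed signal of the list was 2.68 and 2.76 on the level scale in those livers and 1.01 to 1.48 in the others. Its part in other differences was not tested.

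Some single genes varied alone. Nanp, a sialic acid phosphatase measured by 1 probe, was at 5.69 in replicate 1 and at 1.15 to 1.27 in the other livers. Prap1, a secreted protein of epithelia, was at 0.11 in replicate 1 and at −3.46 to −2.97 elsewhere, and the chemokine Cxcl1 at −0.23 in replicate 4 and −4.38 to −2.25 elsewhere. For 7 of the 50 most variable genes another probe was also detected on all arrays. Of the 8 such probes, 6 had an SD over 0.5 and 6 had the same highest replicate as the first probe.

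At the other end, 10 genes differed by hardly more than the second decimal. Copa, a coat protein of vesicles, was at 3.71, 3.73, 3.71, 3.70 and 3.72, an SD of 0.01. Zfp408 was at 8.11 ± 0.01, the lysyl-tRNA synthetase Kars at 4.09 ± 0.01, the signalosome subunit Cops5 at 5.05 ± 0.02 and the B-cell receptor component Cd79b at 3.92 ± 0.02. These SDs are below the median SD of 0.07 between single spots within an array. For Copa that is an unlike measure, since its level is a mean over 10 spots (SD between its spots 0.04). The other 5 were Zcchc8, Cwc22, Atp6v1h, Usp46 and Dus1l.

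The slide was tested as a batch. With limma, 0 of 23839 genes detected on at least 3 arrays differed between slide 1 (replicates 1 and 2) and slide 2 (replicates 3 to 5) at an adjusted p under 0.05, and the smallest adjusted p was 0.23. At an unadjusted p under 0.05 the count was 1946. Lpin1, a phosphatidate phosphatase and regulator of fat metabolism, had the smallest p and was at 0.99 and 0.82 on slide 1 and −1.01, −0.87 and −0.94 on slide 2. Its difference was −1.85 ± 0.12 (SE), with an adjusted p of 0.23 in limma. For the lower against the upper slide row the count was again 0 by limma, with 804 genes at an unadjusted p under 0.05 and a smallest adjusted p of 0.131. With 2 arrays against 3 and the 2 most different livers on the same slide, a slide effect and the pups on it cannot be told apart.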

How the data were processed

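Liver RNA of 5 wild-type pups was measured, 1 array each. The deposited intensity values (gProcessedSignal, gMeanSignal, gBGMedianSignal) were made by the authors with Agilent Feature Extraction 10.10.1.1, per the file headers, which name a background subtraction with detrending; their normalization between arrays is not given in the sources used here. The series matrix holds the authors' own log2 values, for which the submitters' processing notes name limma; they served as an alternative.

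Of 62976 spots 3671 control spots were left out, spots that the software marked as outliers (181 to 526 an array) were dropped, and averaging repeated probes left 55681. Level was log2 signal minus the array's 75th percentile of non-control spots. Each gene was read by its brightest probe on average; a probe was detected where gIsWellAboveBG was set. Names came from the RefSeq table by accession (27229 probes), symbol (3586) or synonym (565); 24301 kept the file's name. Coordinates are mm9, per the file headers. Number of arrays limits precision. SD is over n = 5; 151 of the 21334 genes used for SDs had a flagged spot left out, so their SD rests on fewer arrays. The fold of a gene at background is a bound against the higher of its own signal and the dimmest signal well above background of each array where it was not detected, averaged on the log2 scale.

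Slides and slide rows were compared with limma 3.58.1 (lmFit, eBayes; Benjamini-Hochberg) in R 4.3.3, which was tested on simulated data. Python 3.11.15 did the rest. The members, the gene lists and the rule for naming genes (30 highest levels, 30 largest and 10 smallest SDs, 20 genes switching between background and signal, leading members of lists, and a fixed set) were chosen with earlier results of these data known; Otc, Rtl1, Med16, Ndor1 and Synrg fall outside that rule and were named after their values were seen. Lists overlap. Alternatives were other normalizations, detection calls, probe rules, measures of spread and leaving out each array.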

Additional observations from a re-analysis of the deposited data

Results flagged for a closer look

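With 5 livers, a liver was set apart where its distance to the nearest other liver exceeded 0.71 of the whole range (Dixon's critical value). This was done for the named genes, many of which were named for their spread, and for the lists, so their number is not set against chance. Over 13975 genes with a proper symbol detected on all arrays 1080 passed (7.73%), where chance gives about 1 in 20. They passed through replicates 1 to 5 in 393, 491, 57, 70 and 69 cases. The gaps below are in log2 units.

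In replicate 1, Nanp was above the nearest other liver by 4.42, Prap1 by 3.08 and Hamp by 2.02, and Cebpa was below it by 0.69. The mean deviation of the stem and progenitor markers was above it by 0.21.

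In replicate 2, the pancreas genes Clps, Ins2 and Amy2a5 were above the nearest liver by 3.98, 2.43 and 1.94, and the lipogenic gene Fasn by 0.80. Ass1, G6pc, Per1 and the platelet gene Pf4 were below it by 1.57, 0.91, 0.55 and 0.40. The gluconeogenesis list lay below it by 0.29 and the ribosomal protein list by 0.14.

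In replicate 3, Ddx3y and Eif2s3y were above the nearest liver by 8.02 and 7.48, measured to signals at or near background, and Xist was below it by 4.17. In replicate 4, Usp46, one of the least variable genes, was above it by 0.038. In replicate 5 the fatty acid oxidation list lay above it by 0.32. The causes were not tested.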

How the results depend on the processing

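The number of genes detected on no array was 5554; it was 1757 with the weaker detection call of the scanner software (gIsPosAndSignif) and 340 over the probes of the authors' series matrix. Of the 50 highest levels 33 stayed with the median over detected probes. The median SD of 0.19 was 0.153 after normexp background correction and quantile normalization, where 781 genes had an SD over 0.5 in place of 1540. That count was 2829 over genes detected on at least 3 arrays and 394 above a level of 0, a filter chosen after seeing the data. Of the 50 largest SDs 21 stayed by median absolute deviation and 30 relative to the trend on level. The count of genes that differed between slide rows, a comparison added after seeing the data, was 2158 without a filter on low values and 0 with it. The causes were not tested.

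Leaving out each array in turn gave 21442 to 22103 genes detected on all arrays, 5760 to 7587 on none (7587 without replicate 1), 48 to 49 of the 50 highest levels, a median SD of 0.161 to 0.195, 1190 to 1919 genes with an SD over 0.5 (1190 without replicate 2), 23 to 42 of the 50 largest SDs (23 without replicate 2), 0 to 0 genes between slides and 0 to 1 between rows. Over all alternatives, 403 of 1757 levels of named genes moved by at least 1 SD. Leaving out 1 array cannot move a mean of 5 by its own SD. Those settings therefore could not count, and all 161 levels stayed in each of them. The 403 all came from the other alternatives, so their share of 1757 understates how often levels moved there. For the SDs the rule counted only a rise by the SD's own size or more, met by 29 of 1757. A fall could not count, such as that of Ass1 from 0.90 to 0.26 without replicate 2, so this number does not show how far SDs fell. No paired analysis was possible because 1 group of 5 livers was described. With 5 arrays, dim probes have only bounds.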
